A study of Homo sapiens with 14 samples.

Results

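Hedgehog signalling was examined through 9 genes, which encode the ligands SHH, IHH and DHH, the receptor PTCH1, the signal transducer SMO, the ligand-binding inhibitor HHIP and the transcription factors GLI1, GLI2 and GLI3. They were chosen by gene symbol and not by a rule on their measured values, although earlier results of these data were known. All 9 were found among the 60624 Ensembl gene identifiers listed for each library. RNA had been sequenced from 14 libraries in 9 groups, all from MEL1, a single line of human embryonic stem cells, so that every group shares 1 genetic background. The study's methods name it as MEL1 INS GFP/W, a reporter line with GFP at 1 allele of the insulin gene. The groups hPSC (undifferentiated cells grown on CF1 feeder cells), DE (definitive endoderm), PP2 (pancreatic progenitors reached by stepwise differentiation in suspension) and SC-β (β-like cells that came straight from stem cells, with no expansion step) were batch 1 and had 1 library each. Expandable pancreatic progenitors, called ePPs, were sampled at passage 9 (ePP-P9) and passage 21 (ePP-P21), and β-like cells made from ePPs formed the group ePP-β. These 3 groups were batch 2, with 2 libraries each. By the study's methods, ePPs were kept on feeder layers in a medium of EGF, bFGF and a TGFβ receptor inhibitor (EF6) to which I-BET151 was added. Batch 3 held stem cell-derived pancreatic progenitors treated with DMSO or with I-BET151 (1 μM, 7 days), a compound that blocks BET bromodomain proteins, with 2 libraries each. None of the listed media names a Hedgehog ligand or a SMO agonist or antagonist. Whether other listed compounds, such as the forskolin used in differentiation towards β-like cells, act on the pathway was not examined.

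In Hedgehog signalling, a secreted ligand binds PTCH1 and so relieves SMO of its inhibition, and SMO then acts through the primary cilium to turn GLI proteins into activators of transcription. GLI1, PTCH1 and HHIP are themselves classic GLI targets, and PTCH1 and HHIP in turn restrain the pathway. GLI2 is the main activator, while GLI3 is largely processed to a repressor when no ligand is present. In the gut, endodermal epithelium makes the ligands and the surrounding mesenchyme responds to them. The early pancreatic bud is unusual in that SHH is kept out of its epithelium.

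On GRCh38 (GENCODE release 44), SHH lies at chr7:155799980-155812463, IHH at chr2:219054424-219060921, DHH at chr12:49086656-49094801 and PTCH1 at chr9:95442980-95517057, all on the minus strand. SMO lies at chr7:129188633-129213545, GLI1 at chr12:57459785-57472268, GLI2 at chr2:120735623-120992653 and HHIP at chr4:144646156-144745271, all on the plus strand, and GLI3 at chr7:41960949-42264100 on the minus strand. SHH was the only member that overlapped no other annotated gene. The sources used here do not state whether counting used strand, so reads of a member and of an antisense neighbour cannot be told apart. HHIP overlaps the antisense RNA HHIP-AS1 (up to 4.18 TPM in a library) and the opposite-strand gene ENSG00000285713 (up to 9.67 TPM). For PTCH1 the antisense neighbours reached 4.03 TPM and for GLI1 2.16 TPM.

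GLI proteins bind the sequence GACCACCCA, and RefSeq promoter windows of up to 250 bases before and 50 bases after a transcription start (GRCh38.p14) were searched for it on both strands. Of 35116 windows, 83 held it (0.236%, Wilson 95% interval 0.191 to 0.293%). Windows were given for 7 of the 9 members, 12 windows in all, and not for GLI1 and GLI3. One held the motif, and it was 1 of the 5 windows of PTCH1. With any base at the middle position (GACCNCCCA), 384 of all windows matched (1.09%), and still 1 of the 12. The PTCH1 match is shown because PTCH1 is the member whose RNA level is commonly read as an output of the pathway. The 109 bases printed are the part of that window around the motif, at chr9:95509380-95509488 on the minus strand, within PTCH1 and over 0 annotated exons. The capitals mark the motif in its reverse complement, TGGGTGGTC, which begins 172 bases before the start site.
PTCH1 stretch: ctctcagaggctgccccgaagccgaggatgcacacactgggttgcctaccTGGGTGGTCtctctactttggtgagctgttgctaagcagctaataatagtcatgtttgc
Of the other pathway genes described below, 35 had windows, and 0 of their 61 windows held the motif in either form. A match describes letters in a window and is not evidence of binding in these cells.

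TPM values are relative to the whole library and take transcript length into account, so levels of different genes can be set side by side. Read depth is unknown, and between 14982 and 17578 genes per library reached 1 TPM. Every gene of the mitochondrial genome was listed at 0 throughout, but none of the 9 Hedgehog genes was listed at 0 in any library. The stage markers POU5F1 (3401 TPM in hPSC), SOX17 (1140 TPM in DE) and PDX1 (251 TPM in PP2) were each highest in the stage given. NKX6-1, a later progenitor marker, was at 23.5 TPM in PP2 and at 176 to 213 TPM in ePP libraries. The β-like groups held several hormones, with INS at 20658 TPM and GCG, the α cell hormone gene, at 74281 TPM in SC-β, and with INS at 10916 and 17374 TPM and GCG at 14107 and 13360 TPM in ePP-β. Markers of other cell types differed between groups. The summed level of 8 fibroblast or mesenchyme markers was 1510 TPM in PP2 and 2688 TPM in SC-β, 563.5 TPM in hPSC, 51.3 TPM in DE, 40.4 to 71.0 TPM in the 6 ePP and ePP-β libraries and 37.7 to 190.1 TPM in batch 3. In hPSC the largest of these markers were THY1 (342 TPM) and COL1A1 (195 TPM), while COL3A1 was at 0.0111 TPM and DCN and LUM at 0. In bulk RNA, fewer cells of a type and less RNA per cell cannot be told apart. Batch and group cannot be told apart where single-library stages are set beside the other groups. Nothing in the labels says that replicates were separate cultures, so p-values measure the spread between these libraries, which may be technical.

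The 9 genes spanned a wide range of levels. Of the 126 values, 62 reached 1 TPM. SMO, IHH, SHH, PTCH1 and GLI1 reached 10 TPM in at least 1 library, HHIP reached 5 TPM, GLI2 and GLI3 passed 1 TPM, and DHH stayed below 1 TPM throughout.

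**Figure D1:**
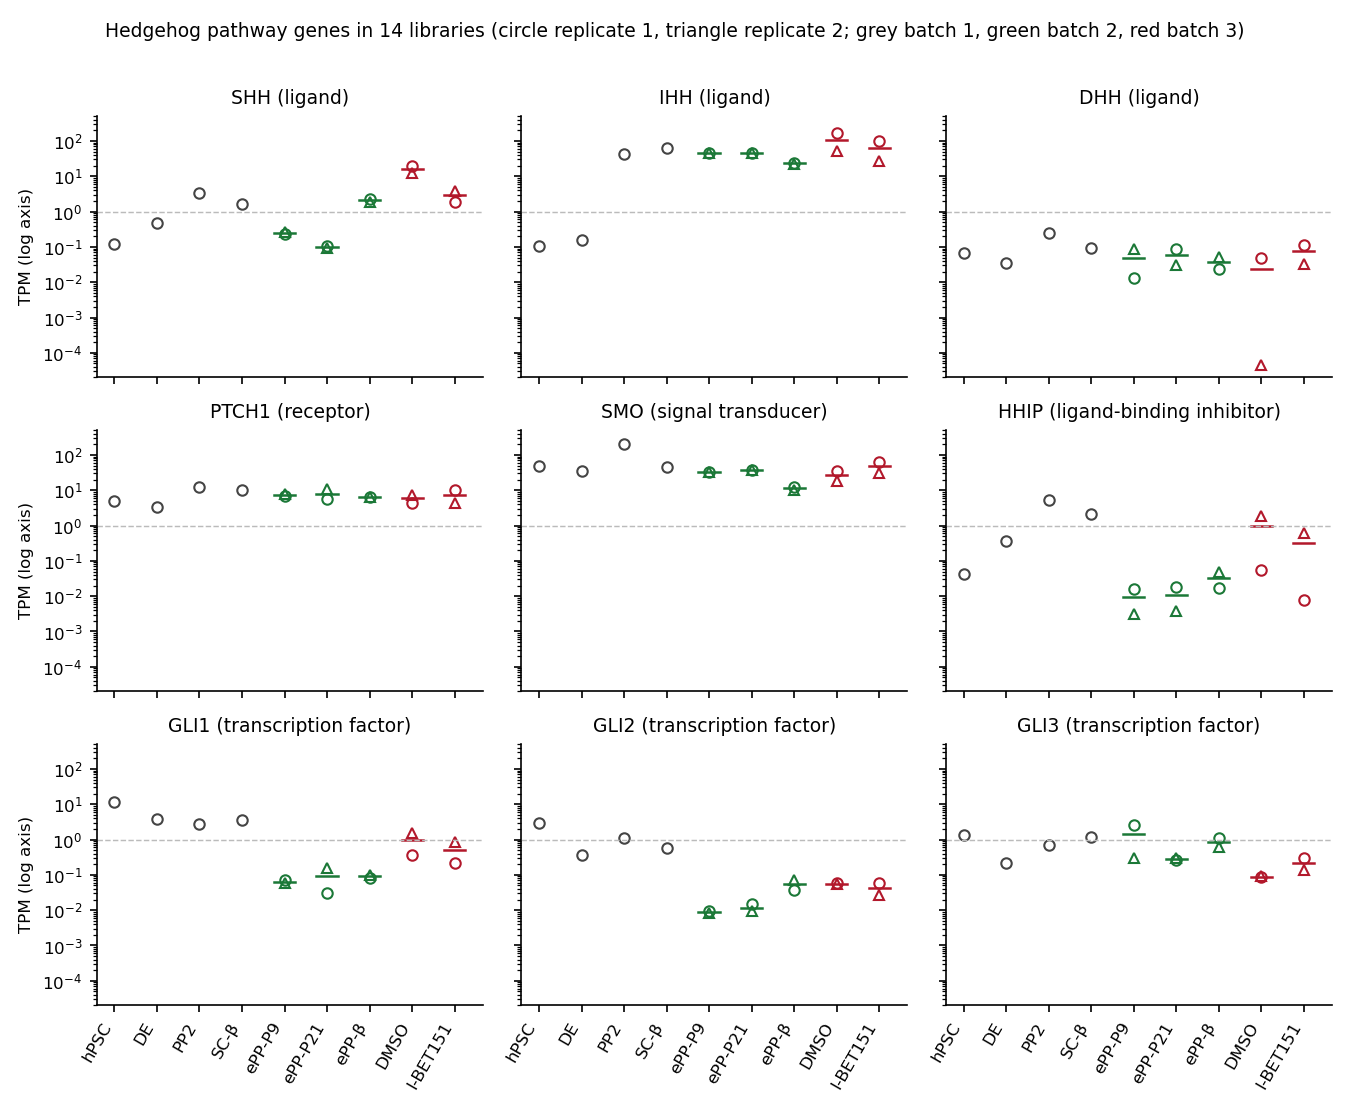
TPM (log axis) of the 9 Hedgehog genes in each of the 14 libraries, by group. Circles are replicate 1, triangles replicate 2, short lines the mean of 2 libraries, colours the batch and the dashed line 1 TPM; IHH and SMO lie far above 1 TPM from PP2 onwards, while GLI1, GLI2 and HHIP lie below 0.2 TPM in all 6 ePP and ePP-β libraries.

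IHH gave the highest ligand RNA from the progenitor stage on. It was at 0.109 TPM in hPSC and 0.153 TPM in DE, and at 43.5 TPM in PP2 and 65.2 TPM in SC-β. The ePP libraries lay close together, at 45.6 and 46.3 TPM at passage 9 and 46.3 and 46.0 TPM at passage 21. The ePP-β libraries were at 24.2 and 23.0 TPM, below every ePP library. DMSO libraries held 169 and 50.3 TPM, and I-BET151 libraries 98.4 and 26.7 TPM. In order of group means, DMSO, SC-β, I-BET151 and ePP overlapped their neighbours, ePP-P9 lay just above PP2, and ePP-β, DE and hPSC followed without overlap where replicates exist.

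SHH, the ligand that is normally absent from pancreatic bud epithelium, was much lower and followed another order. It was at 0.118 TPM in hPSC, 0.471 TPM in DE, 3.32 TPM in PP2 and 1.64 TPM in SC-β. The ePP libraries held 0.237 and 0.263 TPM at passage 9 and 0.105 and 0.0939 TPM at passage 21. The ePP-β libraries held 2.27 and 1.92 TPM. DMSO libraries were the highest of the series, at 19.7 and 12.8 TPM, and I-BET151 libraries were at 1.91 and 3.82 TPM. The DMSO libraries overlapped no other group, whereas I-BET151 overlapped both PP2 and ePP-β. DHH, the third ligand, known from testis and peripheral nerve, was highest in PP2 at 0.241 TPM and lowest in DMSO replicate 2 at 4.6e-05 TPM.

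SMO, the membrane protein that passes the signal on, stood out in a single library. It was at 47.8 TPM in hPSC, 35.8 TPM in DE, 201 TPM in PP2 and 46.1 TPM in SC-β. The ePP libraries ranged from 32.6 to 37.5 TPM and the ePP-β libraries were at 12.3 and 10.4 TPM, the lowest of all. DMSO libraries were at 36.0 and 18.6 TPM and I-BET151 libraries at 64.3 and 31.5 TPM. PTCH1, the receptor, varied least among the members above 5 TPM. It was at 4.84 TPM in hPSC, 3.45 TPM in DE, 12.2 TPM in PP2 and 9.97 TPM in SC-β. Its ePP libraries were at 6.86 and 7.76 TPM at passage 9 and at 5.54 and 10.6 TPM at passage 21, and its ePP-β libraries at 6.44 and 6.52 TPM. Batch 3 gave 4.25 and 7.52 TPM with DMSO and 10.4 and 4.37 TPM with I-BET151. From SC-β down to DMSO, most neighbouring groups in the order of PTCH1 overlapped, and only ePP-P9 and ePP-β did not.

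GLI1, GLI2 and HHIP were highest in batch 1. GLI1, a transcription factor that is itself a target of the pathway, was at 11.6 TPM in hPSC, 3.74 TPM in DE, 2.81 TPM in PP2 and 3.47 TPM in SC-β. In the ePP libraries it was between 0.0308 and 0.160 TPM, and in ePP-β at 0.0811 and 0.101 TPM. DMSO libraries held 0.365 and 1.58 TPM of GLI1 and I-BET151 libraries 0.210 and 0.827 TPM. GLI2, the main activator, was at 2.98 TPM in hPSC, 0.356 TPM in DE, 1.11 TPM in PP2 and 0.590 TPM in SC-β, and between 0.00816 and 0.0738 TPM in the 10 libraries of batches 2 and 3. GLI3 was at 1.32, 0.217, 0.691 and 1.19 TPM in hPSC, DE, PP2 and SC-β. Its values split within 1 group, with 2.63 TPM in ePP-P9 replicate 1 and 0.293 TPM in replicate 2, and ePP-P21 libraries were at 0.260 and 0.293 TPM. The ePP-β libraries held 1.09 and 0.597 TPM of GLI3, the DMSO libraries 0.0870 and 0.0922 TPM, and the I-BET151 libraries 0.294 and 0.142 TPM.

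HHIP, a membrane-anchored inhibitor that captures ligand, was at 0.0419 TPM in hPSC, 0.372 TPM in DE, 5.30 TPM in PP2 and 2.15 TPM in SC-β. The ePP libraries held between 0.00323 and 0.0178 TPM and the ePP-β libraries 0.0168 and 0.0480 TPM. In batch 3 it differed more between replicate numbers than between treatments, with 0.0544 and 1.90 TPM in DMSO and 0.00777 and 0.625 TPM in I-BET151. GLI1 was likewise higher in both replicate 2 libraries, whereas IHH and SMO were higher in both replicate 1 libraries.

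The 2 libraries with most HHIP were also those with most mesenchymal RNA. FOXF1, a mesenchymal gene of the gut and a known Hedgehog target, was at 15.7 TPM in PP2 and 29.8 TPM in SC-β, and at most 0.237 TPM in every other library. COL3A1 was at 779 TPM in PP2 and 1210 TPM in SC-β. All the ePP and ePP-β libraries, with fibroblast marker sums of at most 71.0 TPM, had at most 0.160 TPM of GLI1 and 0.0480 TPM of HHIP. Equally low sums went with more of both elsewhere, with 3.74 TPM of GLI1 and 0.372 TPM of HHIP in DE (sum 51.3 TPM) and 0.827 and 0.625 TPM in I-BET151 replicate 2 (sum 37.7 TPM). SC-β had more fibroblast marker RNA than PP2 but less HHIP. DMSO replicate 2 had more HHIP than replicate 1, with a marker sum of 83.2 against 190.1 TPM. Endothelial markers (PECAM1, CDH5 and KDR) summed to 61.4 TPM in PP2 and 3.26 TPM in SC-β. The part of other cell types in these levels was not tested.

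**Figure D2:**
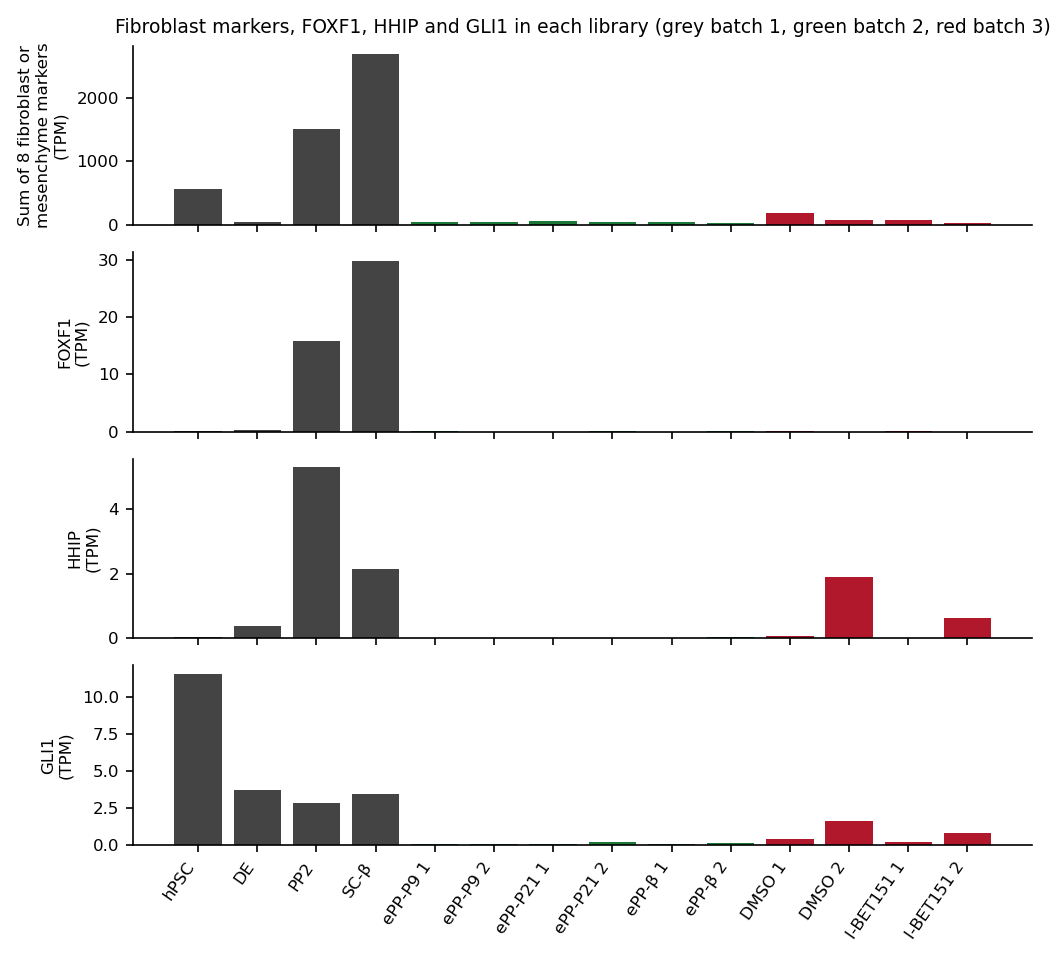
TPM per library (bars, linear axes from 0) of 8 summed fibroblast or mesenchyme markers, FOXF1, HHIP and GLI1, coloured by batch. FOXF1 is above 15 TPM in PP2 and SC-β only, where the marker sums are 1510 and 2688 TPM, while GLI1 is highest in hPSC at 11.6 TPM.

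The first question of the design was how genes change from stem cell to β-like cell. Differences are given on the log2(TPM + 1) scale, which understates changes of low genes. Each stage had 1 library, so these differences have no replicate check and no test. From hPSC to DE, 2 of the 5 members that reached 1 TPM in either stage were lower by over 1 on this scale, GLI1 by -1.41 and GLI2 by -1.56, and 0 were higher. Over all genes compared, 16.1% were lower and 10.8% higher by that margin. From DE to PP2, 5 of 7 members were higher by over 1, beside 27.2% of all genes, and 0 were lower, beside 9.83%. The differences were 5.27 for IHH, 2.46 for SMO, 2.20 for HHIP, 1.57 for PTCH1 and 1.56 for SHH. GLI1 did not share this direction, with a difference of -0.32. From PP2 to SC-β, SMO alone of 8 members was lower by over 1, at -2.10, and HHIP, at 5.30 TPM in PP2 and 2.15 TPM in SC-β, lay just inside the margin. Of all genes 22.1% were lower and 12.7% higher there, and 0 members were higher.

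The second question was how expandable progenitors compare with the progenitors of directed differentiation. IHH was at close levels in both, with a mean of 46.05 TPM in the 4 ePP libraries and 43.5 TPM in PP2, a log2 difference of 0.081. Of 7 members compared, 5 were lower in ePP by over 1 (HHIP -2.64, SMO -2.49, SHH -1.88, GLI1 -1.82 and GLI2 -1.06) and 0 were higher, beside 26.9% of all genes lower and 8.44% higher. GLI2 lay inside the margin with median centring (-0.61) and quantile normalization (-0.70), which leaves 4. PTCH1 differed by -0.63. PP2 was a single library of another batch, and its fibroblast marker sum was 1510 TPM against 46.2 to 71.0 TPM in ePP libraries, so these differences were not tested. The media listed for PP2 hold no I-BET151, so expansion and exposure to the compound cannot be told apart either.

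Passage 21 was compared with passage 9 to ask whether ePPs keep their expression over time in culture. The Hedgehog genes that could be tested showed no change that passed. A linear model (limma) on log2(TPM + 1) was fitted over the 15822 genes that reached 1 TPM in 2 or more of the 4 libraries. A call required a p below 0.05 after Benjamini-Hochberg adjustment and a log2 fold change over 1 in size. IHH, PTCH1 and SMO passed the filter and 0 were called, beside 1.07% of all tested genes called higher and 0.0569% called lower. IHH had the narrowest interval, with a log2 fold change of 0.0071 (95% interval -0.22 to 0.23, adjusted p = 0.973). The fold change of SMO was 0.15 (95% interval -0.097 to 0.39, adjusted p = 0.429). PTCH1 gave 0.073 (95% interval -0.67 to 0.82, adjusted p = 0.913), an interval wide enough to hold a moderate change in either direction. The signs of these small values turned with the scaling of the libraries. SHH was lower in both passage 21 libraries than in either passage 9 library, but all 4 values were under 0.3 TPM. With no filter, its log2 fold change was -0.19 with an adjusted p of 0.205 (limma).

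The libraries with I-BET151 and DMSO asked which genes respond to the compound in pancreatic progenitors. SHH had the largest difference of the 4 members tested, and was lower with I-BET151. Its level was 19.7 and 12.8 TPM with DMSO and 1.91 and 3.82 TPM with I-BET151. The groups did not overlap for SHH, and the share of all genes without overlap was not counted. The log2 fold change was -2.17 (SE 0.42, 95% interval -3.24 to -1.11), with an adjusted p of 0.112 over 16687 tested genes (limma), so SHH was not called. Over 13 alternatives its log2 fold change ranged from -2.55 to -1.81, and leaving out I-BET151 replicate 2 gave -2.54. With no filter its adjusted p was 0.298 (limma), and 0 genes of the whole table were called. With the spread of all 10 replicated libraries SHH was called, with an adjusted p of 0.0043 (limma). That fit called 518 genes higher and 1155 lower of 19179. It includes batch 2 libraries, whose replicates correlated across genes at 0.970 to 0.979, against 0.941 in DMSO and 0.919 in I-BET151. In the fit of all 4 libraries the size of the SHH change exceeded that of 97.3% of the tested genes. In that fit 0.00599% of genes were called higher and 0.204% lower, and an unadjusted p under 0.05 was found for 15.2%. The study's own test, a model for counts, reported far more changed genes at the same thresholds. Few calls in the fit used here are therefore not evidence that few genes respond.

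IHH, SMO and PTCH1 did not pass either. IHH fell within each replicate number, from 169 to 98.4 TPM and from 50.3 to 26.7 TPM, but the DMSO and I-BET151 ranges overlapped. Its log2 fold change was -0.83 (95% interval -2.99 to 1.32, adjusted p = 0.699, limma), and it was 0.031 without DMSO replicate 1 and 0.087 without I-BET151 replicate 2. SMO was higher with I-BET151 at both replicate numbers, with a log2 fold change of 0.77 (95% interval -0.54 to 2.09, adjusted p = 0.541), and 0.27 to 1.28 when single libraries were left out, lowest without I-BET151 replicate 1 and highest without I-BET151 replicate 2. PTCH1 gave 0.22 (95% interval -1.06 to 1.51, adjusted p = 0.878), with opposite directions at replicate numbers 1 and 2, and was negative without DMSO replicate 1 (-0.12) or I-BET151 replicate 1 (-0.32). GLI1, GLI2, GLI3, HHIP and DHH did not reach 1 TPM in 2 libraries and were not tested. GLI1 and HHIP were lower with I-BET151 at each replicate number, although their ranges overlapped. The labels do not say that libraries of the same number are pairs.

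**Figure D3:**
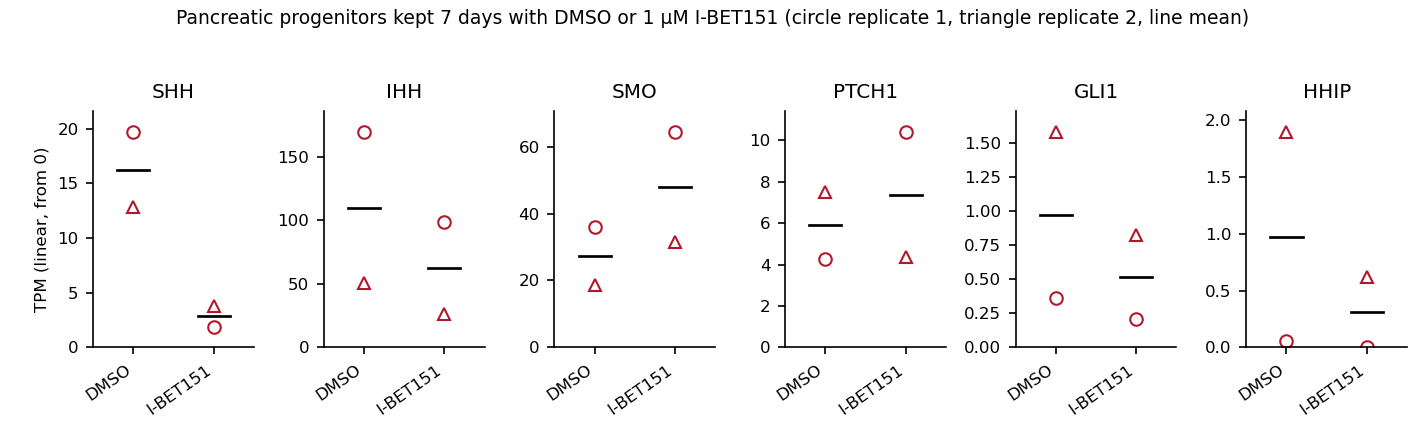
TPM (linear axes from 0, a scale for each gene) of 6 Hedgehog genes in progenitors treated with DMSO or 1 μM I-BET151, with circles for replicate 1, triangles for replicate 2 and lines for the mean. The DMSO and I-BET151 libraries separate for SHH (12.8 to 19.7 against 1.91 to 3.82 TPM) and overlap for the other 5 genes. The share of all genes that separate in this way was not counted.

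Markers of other tissues moved beside SHH in these 4 libraries. Gastric and intestinal markers, which include TFF1 and TFF2 of the gastric mucosa, summed to 925.7 and 513.5 TPM with DMSO and 193.7 and 130.3 TPM with I-BET151. TFF1 (log2 fold change -5.06) and TFF2 (-6.05) were called lower, both with an adjusted p of 0.048 (limma). The other genes of that list gave no call. VIL1 (-1.98, adjusted p = 0.125) and CDX2 (-0.41, adjusted p = 0.757) were tested, while SOX2 and CLDN18 did not pass the filter. Liver markers summed to 9798 and 8514 TPM with DMSO and 983.7 and 2330 TPM with I-BET151, and TTR was called lower (-4.26). Of 6 fibroblast or mesenchyme markers tested, LUM alone was called lower (-3.37), and the others ranged from COL1A1 (-1.52) to PDGFRA (0.40). None of these 4 calls held with pseudocounts of 0.1 or 0.01 (adjusted p of 0.058 and 0.068) or with no filter (0.234), and LUM did not pass the filter once either DMSO library was left out. The 4 pancreatic progenitor markers summed to 294.4 and 215 TPM with DMSO and 820 and 480.6 TPM with I-BET151. Of the 3 tested, 0 were called, but all had positive log2 fold changes, 2.05 for NKX6-1 and 0.85 for both PDX1 and SOX9. The study reported these tested markers as raised by the compound, in sequencing and by other assays. The lack of a call here is not evidence that they were unchanged. The part of gastric, intestinal, liver, mesenchymal and progenitor cells in the SHH difference was not tested.

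In the step from ePPs to β-like cells, 2 of the members tested were called. SMO fell and SHH rose. SMO went from 32.6 to 37.5 TPM in ePP libraries to 12.3 and 10.4 TPM in ePP-β, a log2 fold change of -1.55 (SE 0.10, adjusted p = 7.7e-05, limma over 18076 genes in 6 libraries). SHH went from 0.0939 to 0.263 TPM to 2.27 and 1.92 TPM, a log2 fold change of 1.40 (SE 0.13, adjusted p = 0.00034). SHH passed the filter only through the ePP-β libraries, in which it is high, so it had to differ to be tested. With no filter its adjusted p was 0.0016, and with either ePP-β library left out it stayed called in the unfiltered fit (1.32 and 1.48). Under quantile normalization its log2 fold change was 0.80, which is not a call, and with pseudocounts of 0.1 and 0.01 it was 3.05 and 3.64. These 2 calls stand among 5 members tested, beside 17.9% of all genes called higher and 9.86% called lower. An adjusted p under 0.05 was found for 57.4% of all tested genes (limma). By size, the fold changes of SHH and SMO exceeded those of 82.3% and 85.3% of tested genes. Markers of other tissues changed in the same libraries. All 4 liver markers were called higher, among them TTR, which islet cells also express, from 11.1 to 22.5 TPM in ePP to 13015 and 15556 TPM in ePP-β. ALB passed the filter only through ePP-β, and its adjusted p with no filter was 0.00084 (limma). Of 6 gastric and intestinal markers, 4 were called higher, with log2 fold changes of 3.22 for TFF1, 2.61 for VIL1, 2.23 for TFF2 and 1.76 for SOX2, and CDX2 was called lower (-2.47). Their part in the Hedgehog changes was not tested. By the study's methods, ePPs were kept with I-BET151, while the media listed for β-like cells hold none. Differentiation and the removal of I-BET151 therefore cannot be told apart in this comparison.

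IHH was lower in both ePP-β libraries than in every ePP library, with a log2 fold change of -0.93 (SE 0.075, adjusted p = 0.00017, limma), short of the size required for a call. With the larger spread of all 10 replicated libraries its adjusted p was 0.237, and with median centring its fold change was -1.07, which is a call. PTCH1 gave -0.19 (95% interval -0.80 to 0.42, adjusted p = 0.55), and GLI3 gave 0.14 (95% interval -0.87 to 1.14, adjusted p = 0.793). GLI3 turned to -0.24 without ePP-P9 replicate 2 and PTCH1 to 0.021 without ePP-P21 replicate 2. GLI1, GLI2, HHIP and DHH stayed below 1 TPM in all 6 libraries and were not tested. This comparison and that of the passages share the ePP libraries.

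Beside SC-β, the β-like cells made without expansion, ePP-β had less of 4 of 7 members by over 1 on the log2 scale (GLI1 -2.03, SMO -1.94, HHIP -1.61 and IHH -1.43) and more of 0, beside 17.9% of all genes lower and 19% higher. SHH was at close levels, with 2.09 TPM on average in ePP-β and 1.64 TPM in SC-β, a difference of 0.22. SC-β was 1 library of another batch with a fibroblast marker sum of 2688 TPM against 52.4 and 40.4 TPM in ePP-β, and these differences were not tested.

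The rest of the pathway was followed in 44 genes of 5 groups. Among genes for ligand processing and release, SCUBE3 reached 19.2 TPM (in PP2), HHAT, the acyltransferase that palmitoylates the ligand, 12.2 TPM, and DISP1, which releases it, 5.53 TPM. Counts of called genes in the lists below stand beside 17.9% of all genes called higher and 9.86% called lower from ePP to ePP-β, and 1.07% and 0.0569% between passages. From ePP to ePP-β, 2 of the 5 fell and 0 rose, both of them secreted SCUBE proteins that help to free ligand from the membrane. SCUBE1 went from 1.73 to 4.02 TPM in ePP libraries to 0.0348 and 0.0299 TPM (log2 fold change -1.98, adjusted p = 0.00047, limma). It passed the filter only through the ePP libraries, and its adjusted p with no filter was 0.0071. SCUBE3 went from 4.27 to 5.57 TPM to 1.76 and 1.68 TPM (-1.09, adjusted p = 0.0017). The list's median log2 fold change was -0.71 against -0.029 over all tested genes.

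Of the co-receptors CDON, BOC, GAS1 and LRP2, cell-surface proteins that bind ligand, 0 of 4 were called in ePP-β. BOC came closest, at 0.191 to 0.751 TPM in ePP and 1.58 and 1.85 TPM in ePP-β (0.96, adjusted p = 0.0022, limma), and the list's median was 0.084. BOC passed the filter only through the ePP-β libraries, in which it is high, so it had to differ to be tested. GAS1 was the highest co-receptor, with 13.6 TPM in SC-β and 10.6 TPM in PP2.

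Among 13 regulators of SMO and GLI proteins, 2 fell and 0 rose in ePP-β, and the list's median was -0.31. KIF7, a ciliary kinesin that controls GLI processing, went from 6.49 to 9.99 TPM in ePP libraries to 1.84 and 2.47 TPM (-1.61, adjusted p = 6e-04, limma). EVC, which couples SMO to the GLI proteins at the base of the cilium, went from 4.17 to 7.04 TPM to 1.89 and 2.11 TPM (-1.13, adjusted p = 0.0026). The kinases CSNK1A1, PRKACA and PRKACB were the highest genes of the list, at up to 140.7, 70.9 and 63.3 TPM. Between passages, STK36, a kinase-like protein that takes part in GLI activation and motile cilia, was called higher at passage 21 (1.14, adjusted p = 0.0499), with 20.9 and 24.4 TPM against 8.40 and 11.2 TPM. This call was lost in 10 of 13 alternatives, among them no filter (0.22), median centring (0.066) and all 10 replicated libraries (0.539), as adjusted p, and without ePP-P9 replicate 1 or either ePP-P21 library (0.068, 0.113 and 0.175). It was 1 of 13, and the list's median was 0.062 against 0.13 over all genes.

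In the primary cilium list, 0 of 11 genes were called in ePP-β (median -0.34). IFT80, an intraflagellar transport gene, was called higher at passage 21 (1.66, adjusted p = 0.047, limma), with 29.6 and 24.0 TPM against 10.0 and 5.96 TPM, the only call of 11 in that comparison (median 0.054). The call was lost in 8 of 13 alternatives, among them no filter (0.234), median centring (0.084) and all 10 replicated libraries (0.356), as adjusted p, and without either ePP-P21 library (0.128 and 0.151). With I-BET151, all 11 cilium genes and all 12 tested regulators had positive log2 fold changes, with medians of 0.83 and 0.60 against 0.16 over all genes, and 0 of either list were called. Of all tested genes 0.00599% were called higher and 0.204% lower there. An unadjusted p under 0.05 (limma) was found for 2 of the 11 cilium genes and 1 of the 12 regulators, beside 15.2% of all tested genes. The share of all genes with a positive fold change was not counted.

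Candidate GLI targets moved in both directions from ePP to ePP-β, with 4 of 8 tested called higher and 1 lower (median 0.93). NKX2-2, a GLI target in the neural tube and also an endocrine transcription factor of the islet, was at 0.137 to 0.376 TPM in ePP libraries and at 78.9 and 72.8 TPM in ePP-β (5.95, adjusted p = 6.5e-06, limma). NKX2-2 and BCL2 passed the filter only through ePP-β, where they are high, and with no filter their adjusted p was 5e-04 and 0.012. The log2 fold change of BCL2 was too small for a call with median centring (0.91), with quantile normalization (0.51) and without ePP-P9 replicate 1 (0.98). BMP4 (1.42), MYCN (1.25) and BCL2 (1.05) were the others called higher, a secreted signal, a growth-promoting transcription factor and an inhibitor of apoptosis. NR2F2, a nuclear receptor, fell from 18.9 to 23.7 TPM to 7.76 and 7.23 TPM (-1.36, adjusted p = 2e-04). CCND1, the cyclin of early G1 and the highest gene of the list, went from 284 to 323 TPM to 167 and 165 TPM (-0.89, adjusted p = 0.00019), short of the size required. FOXF1, FOXF2 and FOXL1, targets in gut mesenchyme, did not pass the filter in this comparison. These targets are regulated by several other pathways as well. With I-BET151, 0 of 7 tested were called. Between passages 0 of 6 were called.

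**Figure D4:**
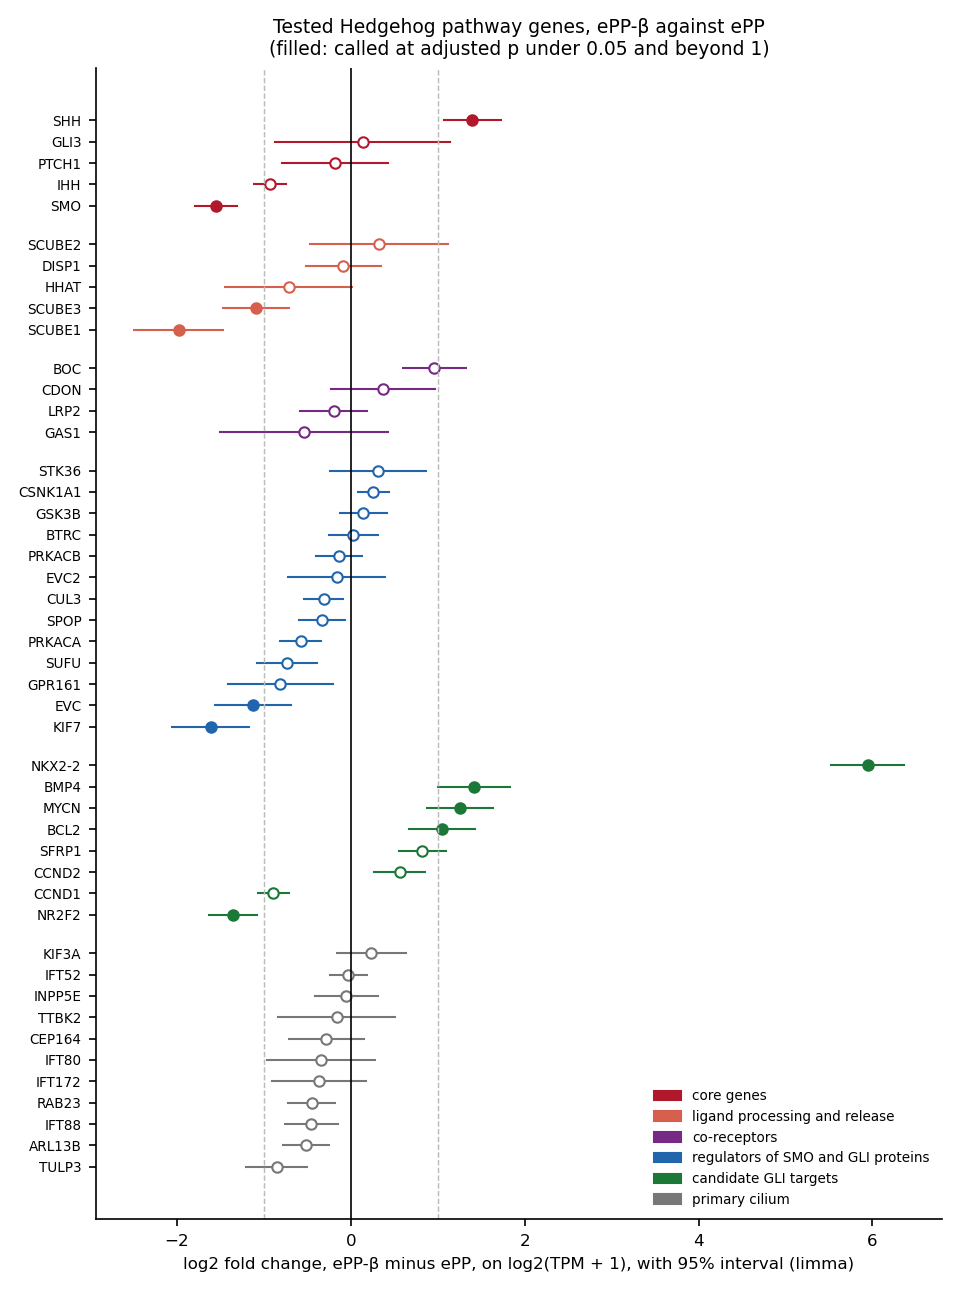
Log2 fold change on log2(TPM + 1) from ePP to ePP-β for each tested Hedgehog pathway gene (points) with its 95% interval (lines, limma), grouped and coloured by role; filled points were called, dashed lines mark a log2 fold change of 1 in size. SHH and SMO lie on opposite sides among the core genes, and NKX2-2 lies farthest out at 5.95.

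For the 6 members with a group mean of at least 5 TPM, the protein-coding genes with the most similar levels were sought among 11865 candidates, by Pearson's r of log2(TPM + 1) group means over the 9 groups. The means share batches and 4 of them rest on 1 library, so r is a description. SHH was most like AQP10 (r = 0.971), SERPINC1 (0.969) and TMEM82 (0.951), each of which had its highest mean in DMSO, at 35.5, 23.0 and 10.7 TPM. IHH was most like IGF2 (0.982), the overlapping gene ENSG00000284779 (0.982) and PRDM16 (0.977), all near their lowest in hPSC and DE. SMO was most like PHRF1 (0.993), ABL1 (0.992) and TRAF4 (0.991), which were likewise highest in PP2 and lowest in ePP-β. PTCH1 was most like MCAT (0.965), CTNND2 (0.962) and DNAJC5 (0.959), and HHIP like PRRT4 (0.977), CAMSAP3 (0.972) and CHMP6 (0.969), again with PP2 highest in each. GLI1 was most like TSTD1 (0.981), TFE3 (0.971) and KNDC1 (0.970), highest in hPSC. Among the members themselves the most similar pair was GLI1 and GLI2 (r = 0.909), while SHH and IHH reached 0.531.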

How the data were processed

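Per the labels, the authors aligned reads to hg38 with HISAT2 2.1.0, and by the study's methods they assembled transcripts with StringTie. The deposited values are TPM per gene identifier, with no counts and with no scaling between libraries beyond TPM, and the listed TPM sum to 908685 to 985497 per library. Their own tests used a model for counts, which TPM values cannot enter. The annotation release, the use of strand and whether reads of feeder cells were removed are not given in the sources used here. Of 60624 identifiers, 60370 matched GENCODE release 44. Genes that reached 1 TPM in 2 or more libraries of a fit were tested two-sided with limma 3.58.1 in R 4.3.3 (eBayes with a trend) on log2(TPM + 1), using only the groups compared and the study's thresholds (adjusted p under 0.05, log2 fold change beyond 1). For ePP, both passages were averaged with equal weight. Stages with 1 library were compared without a test over genes with at least 1 TPM in either. The members, gene lists and tests were chosen with earlier results of these data known. Named genes were the members, listed genes that were called, up to 3 of the highest genes of each list and the 3 most similar genes of each member; LRP2, FOXF1, FOXF2, FOXL1 and PDGFRA were named beyond this rule, after their values were seen. The code recovered most changed genes in simulated data with large changes, a spread fixed for all genes and no replicate-number effect. This checks the code and does not measure its power in these libraries. Depth is unknown, so precision rests on 2 libraries per group, and no duplicated library was found. Alternatives were other pseudocounts, filters and scalings, a replicate block, all 10 replicated libraries and leaving out each library.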

Additional observations from a re-analysis of the deposited data

How the results depend on the processing

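The log2 fold change of SHH with I-BET151 was negative under all 13 alternatives (-2.55 to -1.81, adjusted p 0.0028 to 0.315), and that of SMO in ePP-β under all 15 (-1.69 to -1.44). SHH in ePP-β ranged from 0.80 to 3.64. Of the differences from single-library stages, the members lower by over 1 went from 2 to 3 from hPSC to DE, from 1 to 2 from PP2 to SC-β, and those higher from 5 to 6 from DE to PP2, each with a pseudocount of 0.1. The members called lower with I-BET151 went from 0 to 1, SHH in each case, with the replicate block and with all 10 replicated libraries (adjusted p = 0.020 and 0.0043), and ranged from 0 to 1 when single libraries were left out. In ePP-β, the members called higher went from 1 to 0 with the filter of 5 TPM and with quantile normalization, and ranged from 0 to 1 when single libraries were left out, since SHH fails the filter without either ePP-β library. The members called lower there went from 1 to 2, IHH in both, with median centring and with adjusted p alone. Leaving out an ePP-β library with no filter was chosen after seeing the data.

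Several small fold changes turned sign. With I-BET151, IHH lay between -1.76 and 0.087 and PTCH1 between -0.32 and 0.77 over the alternatives. IHH was 0.031 and PTCH1 -0.12 without DMSO replicate 1, IHH was 0.087 without I-BET151 replicate 2, and PTCH1 was -0.32 without I-BET151 replicate 1. Between passages, median centring gave IHH -0.20, PTCH1 -0.13 and SMO -0.058, and quantile normalization gave -0.12, -0.14 and -0.014. Leaving out ePP-P9 replicate 1 gave IHH -0.0045 and PTCH1 -0.0061, and leaving out ePP-P21 replicate 2 gave PTCH1 -0.34. Over the single libraries left out, IHH reached 0.019 and PTCH1 0.49. In ePP-β, GLI3 was -0.53 with quantile normalization and -0.24 without ePP-P9 replicate 2, and PTCH1 was 0.021 without ePP-P21 replicate 2. Leaving out single libraries gave -0.39 to 0.021 for PTCH1 and -0.24 to 0.33 for GLI3. The causes were not tested.

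Replicate numbers pair no libraries by the labels. The difference between replicates 2 and 1 correlated across genes at 0.675 between DMSO and I-BET151 (78.1% of genes in the same direction), at -0.0093 between the passages and at -0.0040 to 0.044 in the fit with ePP-β. With the block, IHH (-0.83) and SMO (0.77) had adjusted p of 0.025 and 0.034 in the I-BET151 comparison, short of the size required, and genes called over the whole table went from 1 higher and 34 lower to 828 and 1466. Between passages the block gave 64 higher and 2 lower instead of 169 and 9.

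Counts over all genes moved with other settings too. With I-BET151, pseudocounts of 0.1 and 0.01 and no filter gave 0 higher and 0 lower, with 2462, 2417 and 4535 genes at an unadjusted p under 0.05. Median centring gave 119 lower, quantile normalization 135, all 10 replicated libraries 518 higher and 1155 lower, and leaving out single libraries 7 to 283 higher and 100 to 751 lower. Between passages, no filter and median centring gave 0 of either (4677 and 4176 at an unadjusted p under 0.05), quantile normalization 10 and 3, all 10 libraries 0 and 1, and leaving out single libraries 0 to 453 higher and 0 to 25 lower. In ePP-β, quantile normalization gave 2592 higher and 2866 lower instead of 3237 and 1783, median centring 2924 and 2377, and the filter of 5 TPM 2058 higher, while leaving out an ePP-β library gave 1765 or 1623 higher.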
